A study of Mus musculus with 21 samples.

Results

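The R-loop removal and prevention genes described here were Rnaseh1, Rnaseh2a, Rnaseh2b, Rnaseh2c, Poldip3, Aqr, Top3b, Thoc1 and Ddx39b, chosen by name and found by symbol among the 24454 genes of the deposited table. All 9 passed the filter on low counts, as did 13719 genes in all. An R-loop is a stretch of RNA paired with the DNA strand it was copied from, with the other DNA strand left single. Cells limit R-loops by packaging, splicing and exporting RNA as it is made, by relaxing the supercoils behind RNA polymerase, and by digesting the RNA of the hybrid with the ribonucleases RNase H1 and RNase H2. The RTEL1 helicase, the subject of the study, unwinds G-quadruplex (G4) DNA and telomeric loops, and G4 DNA can form in the displaced strand of an R-loop.

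RNA was measured in 21 libraries of mouse embryonic fibroblasts (MEFs), 3 biological replicates in each of 7 groups. Rtel1f/f MEFs, which carry floxed Rtel1 alleles, were infected with adenovirus expressing GFP (Rtel1f/f +GFP, Rtel1-proficient), with adenovirus expressing Cre (Rtel1f/f +Cre, Rtel1-deficient), or with the GFP virus and treated with 10 µM TMPyP4, a porphyrin that stabilizes G4 DNA, for the last 48 h (Rtel1f/f +GFP +TMPyP4). The RTEL1 CA groups were Rtel1f/f MEFs that also expressed RTEL1 with the substitutions C1252A and C1255A from a pBabe vector, infected with GFP or with Cre, so that the RTEL1 CA +GFP cells kept their own Rtel1 beside the mutant. Trf1f/f MEFs, floxed for Terf1, which encodes the telomere protein TRF1, were infected with GFP or with Cre. All cells had an adenovirus infection in common, and infected cells were collected 96 h later. The labels call the 3 libraries of a group biological replicates and do not say whether they came from separate cultures or embryos, so that p-values measure the spread between these samples.

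Total counts per library were between 32069888 and 51938593. Rtel1 was at 59.1 to 66.2 CPM (counts scaled to the size of the library, here normalized by the TMM method) in the 3 Rtel1f/f +GFP libraries and at 26.8 to 31.9 CPM in the 3 +Cre libraries, and Terf1 had at most 5 counts in each Trf1f/f +Cre library. The summed level of 7 fibroblast markers was between 6946 and 28392 CPM. Single fibroblast markers varied, with Thy1 between 0.020 and 269 CPM, Col3a1 between 201 and 3753 CPM and Vim between 1290 and 2687 CPM. The sum of 3 epithelial markers was between 0.396 and 1.91 CPM and that of 3 endothelial markers between 0.120 and 3.99 CPM. Hematopoietic markers summed to 1.05 to 6.38 CPM and muscle markers to 0.251 to 0.719 CPM, with Adgre1 and Myod1 at 0 in all 21 libraries, and glial and neuronal markers to 6.58 to 24.1 CPM. Libraries differed in the balance of transcripts of high and low GC content. The difference between the median log2 level of the tenth of genes with the highest GC content and that of the tenth with the lowest, relative to the mean over groups, was between 0.49 and 0.65 in the Rtel1f/f +GFP libraries and between -0.92 and 0.28 in the other 12 libraries of the Rtel1f/f line, with replicate 2 lowest in each of those 4 groups. This measure is called the GC balance of a library below.

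With edgeR's quasi-likelihood test and an adjusted p of at most 0.01 as the call, 2 of the 9 genes rose in Rtel1f/f +Cre cells relative to +GFP cells and none fell, where 22.0% of all genes tested rose and 43.0% were called in either direction. Those 2 were Aqr and Thoc1. Both also rose with TMPyP4, where 16.6% of all genes rose and 30.0% were called. None of the 9 was called after Cre in RTEL1 CA cells, where 1.09% of all genes were called, or after the deletion of Terf1, where 3.42% were called. At an unadjusted p under 0.05 in edgeR, 1 gene (Rnaseh2a) passed after Cre in RTEL1 CA cells, as did 1950 of all 13719 genes tested. After Terf1 loss 0 of the 9 passed, where 2369 of all genes did. DESeq2 called 0 of the 9 in both. In sequenced bulk RNA, fewer cells of a type and less RNA per cell cannot be told apart. The median absolute log2 fold change of the 9 genes was 0.19 in Rtel1-deficient cells, where that of all tested genes was 0.39, and 0.17 with TMPyP4, where that of all tested genes was 0.30. The libraries of both groups did not overlap for 5 of the 9 genes with Cre and for 6 with TMPyP4, against 61.4% and 57.8% of all genes tested. Rtel1 loss and TMPyP4 share the Rtel1f/f +GFP libraries as control, so that the values of those 3 libraries enter both.

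**Figure D1:**
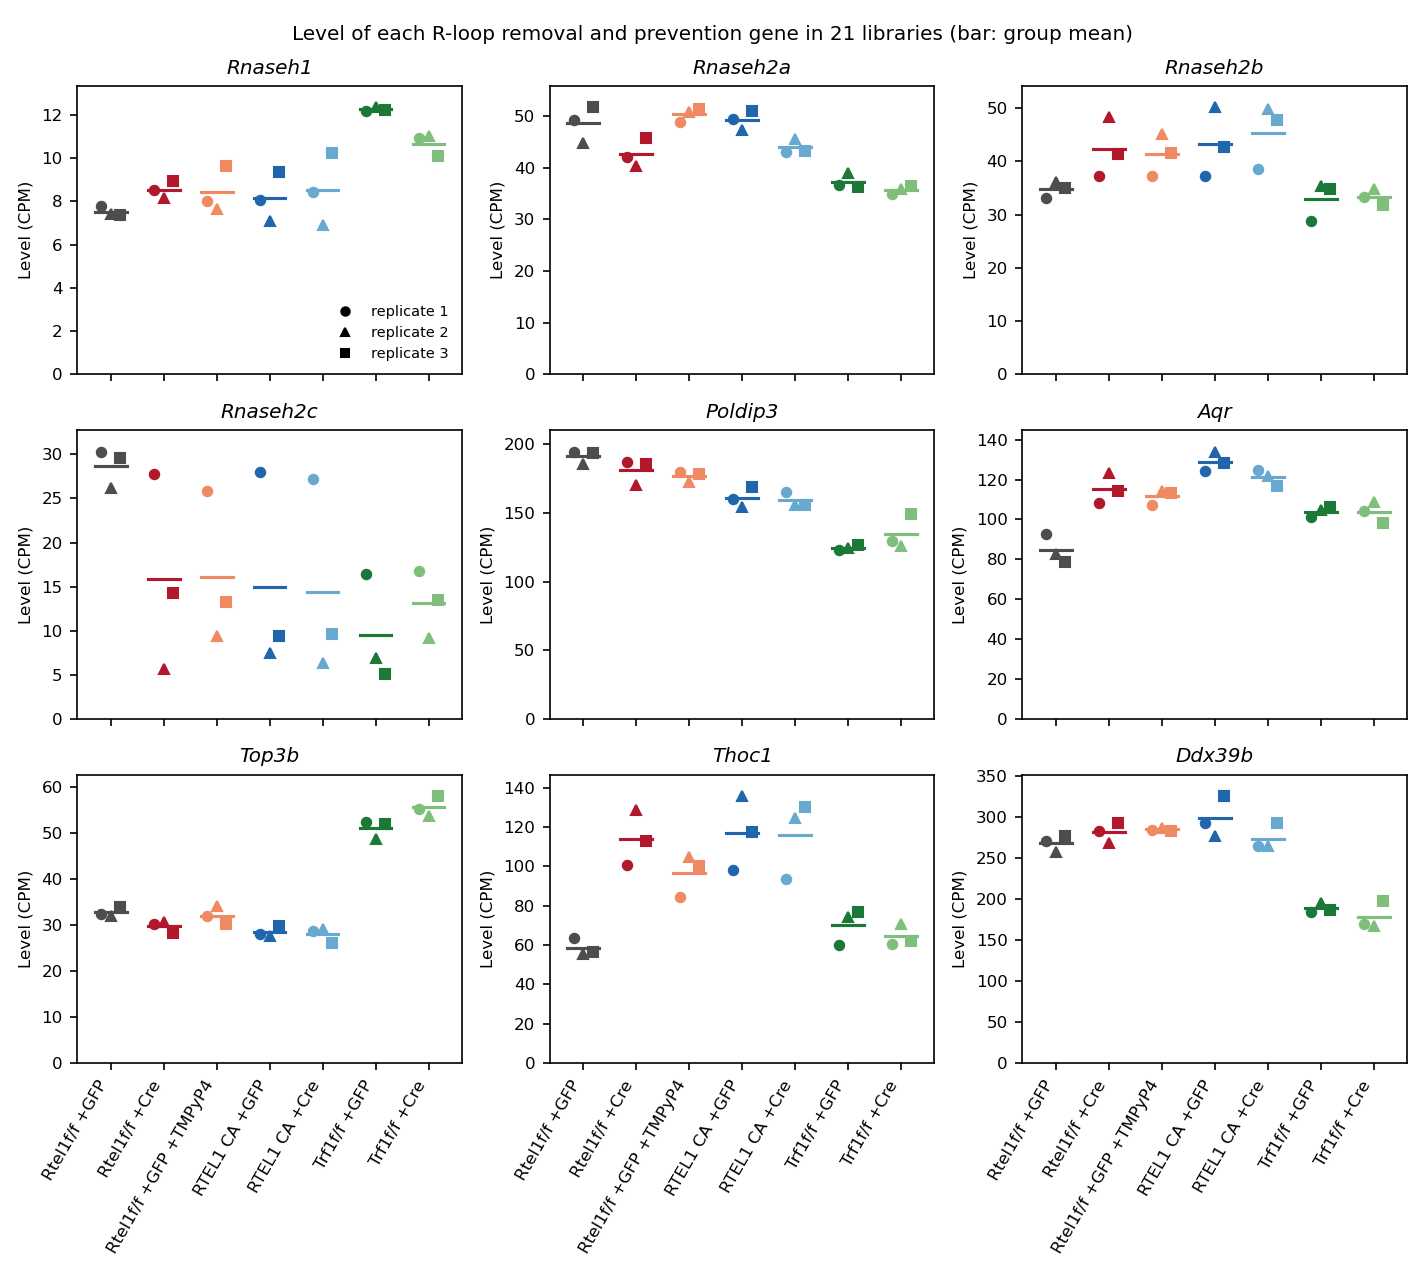
Level of each of the 9 genes in CPM (vertical axes from 0) in the 21 libraries, by group, with the replicate number as the symbol and the group mean as a bar. Aqr and Thoc1 are lower in the 3 Rtel1f/f +GFP libraries than in the other 12 libraries of that line, and Rnaseh2c is highest in replicate 1 of all 7 groups.

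Thoc1 encodes a subunit of the THO complex, which binds nascent RNA and links its transcription to export. It lies on chromosome 18 at 9958180 to 9995484 of mouse genome assembly GRCm38. Its level was 63.6, 55.6 and 56.6 CPM in the 3 Rtel1f/f +GFP libraries and 100.5, 128 and 113 CPM in the +Cre libraries. With TMPyP4 it was 84.5, 105 and 100.2 CPM. Every treated or deleted library was above every Rtel1f/f +GFP library. The log2 fold change was 0.96 ± 0.14 (SE) with Cre (adjusted p = 1.65e-05) and 0.72 ± 0.14 with TMPyP4 (adjusted p = 5.1e-04), that is 1.94-fold and 1.65-fold. Between +Cre and TMPyP4 cells, whose libraries overlapped, the difference was 0.24 with a 95% interval of -0.05 to 0.53 (adjusted p = 0.24), so that the test neither separated these groups nor showed them to be alike.

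In RTEL1 CA cells Thoc1 was high with GFP and with Cre. Its level was 98.0, 136 and 117 CPM in the 3 RTEL1 CA +GFP libraries and 93.6, 124 and 130.2 CPM in the RTEL1 CA +Cre libraries. These ranges overlapped each other and that of Rtel1f/f +Cre cells, and all 6 values were above those of Rtel1f/f +GFP cells. The difference between RTEL1 CA +Cre and +GFP was -0.01 on the log2 scale (95% interval -0.31 to 0.28, adjusted p = 1.00). The effect of Cre on Thoc1 was larger in Rtel1f/f cells than in RTEL1 CA cells by 0.97 ± 0.20 (adjusted p = 8.95e-04), in a comparison where 25.1% of all genes were called. The undeleted RTEL1 CA +GFP cells, the control in that line, were themselves higher than Rtel1f/f +GFP cells by 1.00 ± 0.14 (adjusted p = 1.0e-05).

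Trf1f/f cells had Thoc1 levels near those of the Rtel1f/f +GFP libraries. The 3 Trf1f/f +GFP libraries had 59.9, 74.0 and 76.6 CPM, and the 3 Trf1f/f +Cre libraries had 60.5, 70.7 and 62.1 CPM. The ranges of both Trf1f/f groups overlapped, and the difference after Terf1 loss was -0.12 (95% interval -0.42 to 0.17, adjusted p = 0.76). The effect of Cre was larger in Rtel1f/f than in Trf1f/f cells by 1.08 ± 0.20 (adjusted p = 2.9e-04), where 30.2% of all genes were called.

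Aqr encodes Aquarius, an RNA helicase of the spliceosome's intron-binding complex that acts on R-loops. It spans 114101161 to 114175339 on chromosome 2 (GRCm38), transcribed from the minus strand. The 300 bases around its start, from 250 before to 50 after, are shown because Aqr changed and because the study concerns G4 DNA. Those of Rnaseh2a and Rnaseh2c are shown beside it, since Rnaseh2a was the only gene of the 9 called between +Cre and TMPyP4 cells and Rnaseh2c varied most between replicates. The sequences are those of RefSeq on GRCm38.p6. Windows of 5 of the 9 genes were searched (also Top3b and Ddx39b). Those of Thoc1, Rnaseh1, Rnaseh2b and Poldip3 were not searched. The window of Rnaseh2a lies within the span of the gene given with its values, downstream of the outermost start. Both strands were searched for a G4 motif (4 runs of GGG or longer, separated by 1 to 7 bases of any kind), for CCAAT, for CCGGAAG, a site of ETS factors, and for the E2F sites TTTCCCGC, TTTCGCGC, TTTGCCGC and TTTGGCGC. Matches are in capitals, read on the strand of the gene, so that a match on the other strand appears as its reverse complement.
Aqr, chr2:114175290-114175589, minus strand: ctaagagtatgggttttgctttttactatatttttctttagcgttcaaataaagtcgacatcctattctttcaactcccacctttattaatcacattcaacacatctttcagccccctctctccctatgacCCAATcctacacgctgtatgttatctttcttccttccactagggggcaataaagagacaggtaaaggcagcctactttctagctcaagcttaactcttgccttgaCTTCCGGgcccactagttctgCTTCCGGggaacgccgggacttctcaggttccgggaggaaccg
Rnaseh2a, chr8:84966027-84966326, minus strand: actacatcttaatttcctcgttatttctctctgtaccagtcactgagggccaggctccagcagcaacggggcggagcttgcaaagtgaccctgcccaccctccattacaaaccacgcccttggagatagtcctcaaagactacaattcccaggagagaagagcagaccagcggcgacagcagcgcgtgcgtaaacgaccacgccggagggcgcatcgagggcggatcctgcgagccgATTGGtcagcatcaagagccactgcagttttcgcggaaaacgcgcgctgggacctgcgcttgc
Rnaseh2c, chr19:5601623-5601922, plus strand: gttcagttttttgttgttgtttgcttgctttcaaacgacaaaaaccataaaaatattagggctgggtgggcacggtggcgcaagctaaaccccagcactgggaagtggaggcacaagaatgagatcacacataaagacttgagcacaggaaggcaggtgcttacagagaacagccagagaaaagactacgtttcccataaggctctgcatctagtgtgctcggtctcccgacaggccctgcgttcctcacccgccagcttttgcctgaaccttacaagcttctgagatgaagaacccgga

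The Aqr promoter held 1 CCAAT and 2 ETS sites, the Rnaseh2a promoter 1 CCAAT on the other strand, and the Rnaseh2c promoter none of the motifs. Top3b had 1 CCAAT and 1 ETS site, and Ddx39b 2 ETS sites. No G4 motif and no E2F site was found in any of the 5 windows. Thoc1, the other gene called with Cre and with TMPyP4, was not among them, so that the search gives no result for it. The paper assigned G4 to promoters by another method and over a longer distance from the start, so that this search does not speak to its assignment. Of the 32851 promoters of the table, 18.6% held the G4 motif, 37.4% CCAAT, 8.86% the ETS site and 2.26% an E2F site. The motifs did not overlap one another in these promoters, and a match is a run of letters, not a site shown to be bound.

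Aqr had 92.6, 82.4 and 78.8 CPM in the 3 Rtel1f/f +GFP libraries and 108, 123 and 114 CPM in the +Cre libraries. With TMPyP4 it had 107, 114 and 113 CPM. Again no treated or deleted library reached down to the control libraries. The log2 fold change was 0.45 ± 0.07 (SE) with Cre (adjusted p = 1.9e-05) and 0.40 ± 0.07 with TMPyP4 (adjusted p = 1.1e-04), smaller than those of Thoc1. Directly between +Cre and TMPyP4 cells Aqr differed by 0.04 (95% interval -0.10 to 0.18, adjusted p = 0.70).

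The level of Aqr was 124, 134 and 128 CPM in RTEL1 CA +GFP cells and 125, 122 and 117 CPM in RTEL1 CA +Cre cells. All 6 values were above those of Rtel1f/f +GFP cells. RTEL1 CA +GFP exceeded Rtel1f/f +GFP by 0.61 ± 0.07 (adjusted p = 5.65e-07), and Cre in RTEL1 CA cells gave a difference of -0.09 (95% interval -0.23 to 0.05, adjusted p = 0.655). The 3 Trf1f/f +GFP libraries had 101, 105 and 106 CPM and the +Cre libraries 104, 109 and 98.0 CPM of Aqr, with overlapping ranges and a difference of -0.003 (95% interval -0.14 to 0.14, adjusted p = 1.00). The effect of Cre was larger in Rtel1f/f cells by 0.54 ± 0.09 than in RTEL1 CA cells (adjusted p = 2.5e-04) and by 0.45 ± 0.09 than in Trf1f/f cells (adjusted p = 9.0e-04).

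**Figure D2:**
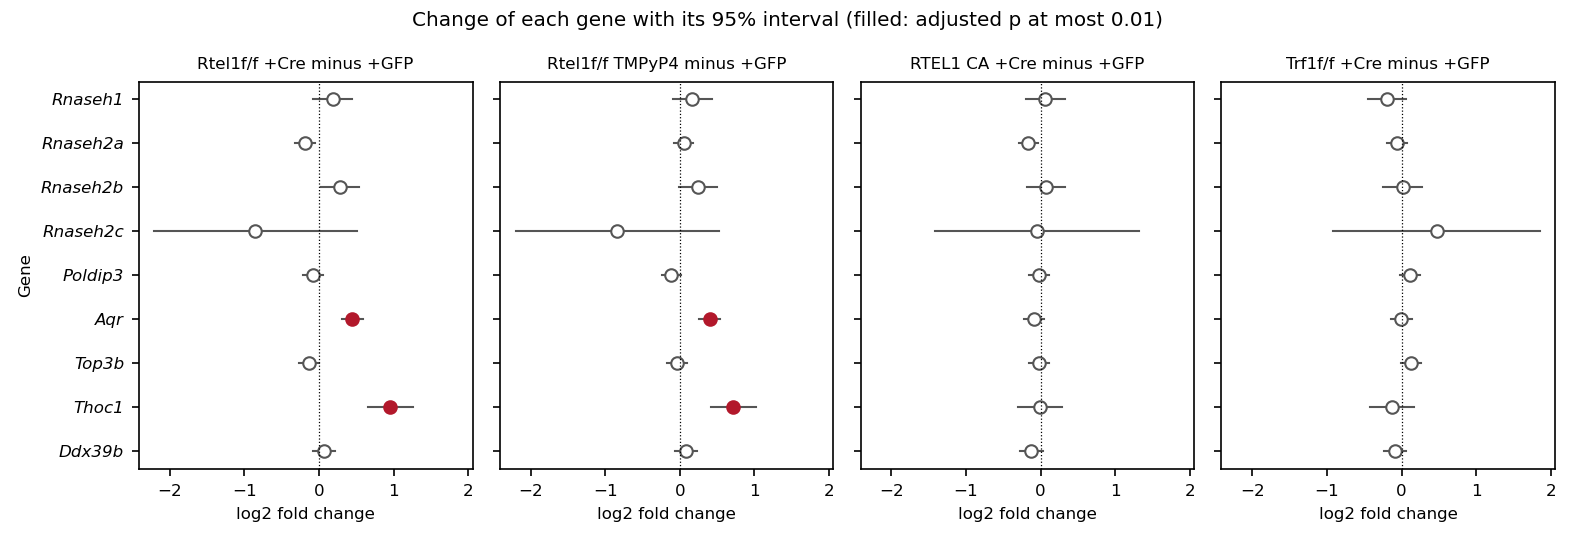
Log2 fold change of each gene (points, horizontal axes) with its 95% interval (bars) in 4 comparisons, filled where the adjusted p was at most 0.01. Aqr and Thoc1 are filled in the comparisons with Rtel1f/f +GFP cells and no gene is filled after Cre in RTEL1 CA or Trf1f/f cells, and the interval of Rnaseh2c is the widest in every panel.

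The scale of the values bears on the size of these differences. On the deposited TPM (transcript levels scaled for length and library size), the median tested gene was lower in Rtel1f/f +Cre than in +GFP cells by 0.28 on the log2 scale, and on the TMM-normalized scale by 0.04. The log2 ratio of mean TPM was 0.21 for Aqr and 0.72 for Thoc1, or 0.49 and 1.00 relative to that median. In TPM the 3 +Cre libraries of Thoc1 were all above the +GFP libraries, and those of Aqr overlapped them. With TMPyP4 the TPM ratios were 0.21 for Aqr and 0.53 for Thoc1, with a median gene at -0.20, and both genes were above the +GFP libraries in all 3 treated libraries. Ddx39b and Rnaseh1 took opposite signs on these scales in both comparisons, as did Rnaseh2a with TMPyP4, and none of these was called. Every direction given below for an uncalled gene is on the TMM-normalized scale.

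Both genes moved with the GC balance of the libraries. Thoc1 transcripts have a GC content of 40.2%, at percentile 5.45 of the tested genes, and those of Aqr one of 47.5%. Within groups, the library order of Aqr was the reverse of that of the GC balance in 6 of 7 groups, and that of Thoc1 in 4 of 7. The Rtel1f/f +GFP libraries, where both genes were lowest for the line, had the highest GC balance of the line. After a correction of each library for GC content, chosen after seeing the data, the log2 fold change with Cre was 0.33 ± 0.05 for Aqr (adjusted p = 2.4e-05) and 0.73 ± 0.08 for Thoc1 (adjusted p = 3.4e-07), and with TMPyP4 0.29 ± 0.05 (adjusted p = 2.0e-04) and 0.51 ± 0.08 (adjusted p = 4.5e-05). With the replicate 1 libraries of the other Rtel1f/f-line groups alone, whose GC balance was nearest to that of Rtel1f/f +GFP cells, Thoc1 stayed called with Cre (0.76 ± 0.14, adjusted p = 0.0011) and not with TMPyP4 (0.52 ± 0.14, adjusted p = 0.023), and Aqr was called in neither (0.34 ± 0.10, adjusted p = 0.019, and 0.33 ± 0.10, adjusted p = 0.041).

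**Figure D3:**
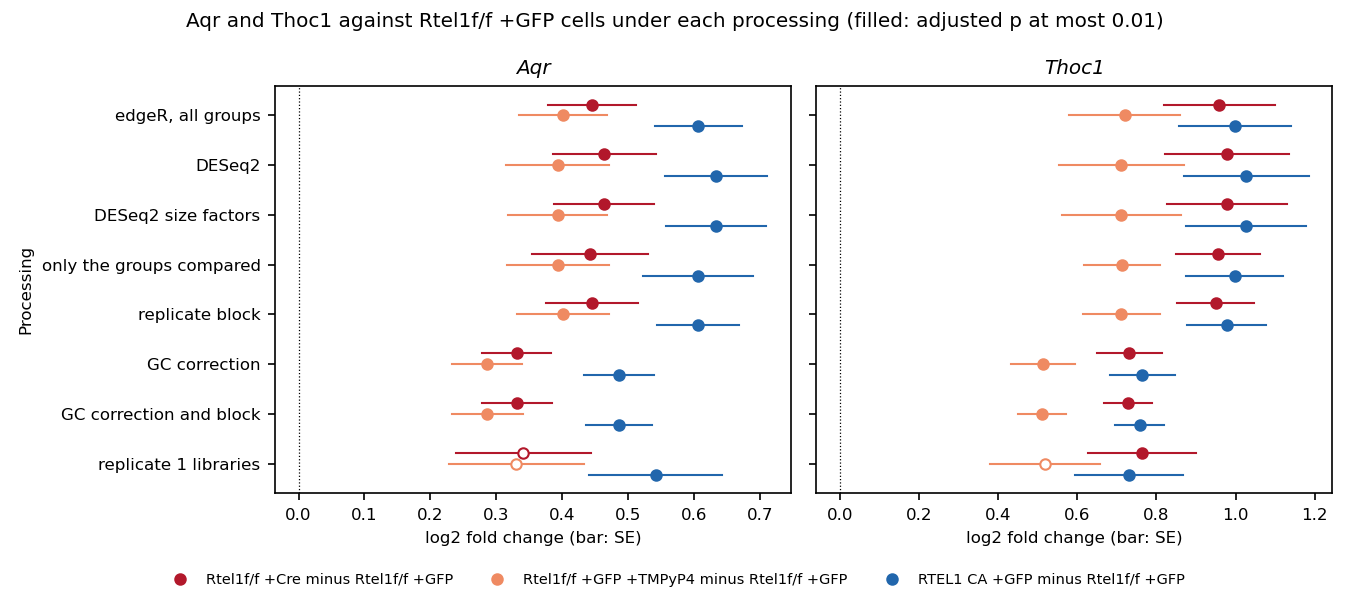
Log2 fold change of Aqr and Thoc1 (points, with SE as bars) relative to Rtel1f/f +GFP cells under 8 ways of processing, filled where the adjusted p was at most 0.01. All values are above 0, those of Thoc1 between 0.51 and 1.03, and the open points are at the replicate 1 libraries.

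The other genes of these complexes were listed by name. Of 14 other THO, TREX and mRNA export genes, 6 rose and 1 fell with Cre in Rtel1f/f cells, where 22.0% of all genes rose, and their median log2 fold change was 0.27 against -0.03 for all genes. The largest changes were those of Alyref2, an export adaptor at only 1.74 CPM in +GFP cells (-0.95 ± 0.22), Ddx39, a helicase of the same family as Ddx39b (0.82 ± 0.08), and Sarnp, an RNA-binding TREX protein (0.73 ± 0.13). With TMPyP4, 3 of these 14 genes rose, where 16.6% of all genes did, and 1 fell. Sarnp, Thoc7 and Ddx39 rose by 0.55 ± 0.13, 0.51 ± 0.11 and 0.48 ± 0.08. Undeleted RTEL1 CA +GFP cells had 6 of the 14 higher and 0 lower than the same Rtel1f/f +GFP libraries (44.7% of all genes called). Ddx39, Sarnp and Thoc7 were higher there by 1.10 ± 0.08, 0.78 ± 0.13 and 0.55 ± 0.11. Of 11 other genes of the intron-binding and Prp19 splicing complexes, 4 rose and 0 fell with Cre, with a median of 0.02. None was called with TMPyP4, where 30.0% of all genes were called. The 3 largest changes were those of Isy1 (0.40 ± 0.06), Cdc5l (0.31 ± 0.08) and Prpf19 (0.25 ± 0.05), all splicing factors. In RTEL1 CA +GFP against Rtel1f/f +GFP cells, 6 of these 11 were higher and 0 lower. No gene of either list was called after Cre in RTEL1 CA or Trf1f/f cells, where 1.09% and 3.42% of all genes were called.

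Ddx39b (UAP56), the RNA helicase that loads export factors onto mRNA, was at 272, 257 and 277 CPM in Rtel1f/f +GFP cells and 284, 269 and 293 CPM in +Cre cells. It had 285, 287 and 284 CPM with TMPyP4. The +GFP and +Cre ranges overlapped, the TMPyP4 libraries were all above the +GFP libraries, and neither difference was called (0.07 ± 0.07, adjusted p = 0.42, with Cre and 0.09 ± 0.07, adjusted p = 0.35, with TMPyP4). After GC correction these differences were 0.27 ± 0.09 (adjusted p = 0.012) and 0.20 ± 0.09 (adjusted p = 0.062), and with the replicate block added both were called (0.26, adjusted p = 9.8e-04, and 0.20, adjusted p = 0.0093). Ddx39b lies on chromosome 17 at 35241746 to 35253707 (GRCm38) and has the close relative Ddx39, so that reads shared by the 2 genes may have been divided between them. Poldip3 encodes a protein that binds a DNA polymerase delta subunit and associates with the export machinery, and lies on chromosome 15 at 83125968 to 83149378. It had 195, 185 and 194 CPM in Rtel1f/f +GFP cells, 187, 170.3 and 186 CPM with Cre, and 179.7, 173 and 178 CPM with TMPyP4. Its TMPyP4 libraries were all below the +GFP libraries, and neither difference was called (-0.08 ± 0.06, adjusted p = 0.305, and -0.11 ± 0.06, adjusted p = 0.16).

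Rnaseh1, whose enzyme cuts the RNA strand of long hybrids, was the gene of the 9 with the lowest level in TPM in all 7 groups. It spans 28649601 to 28659592 on chromosome 12 (GRCm38). It had 7.79, 7.40 and 7.35 CPM in Rtel1f/f +GFP cells, 8.53, 8.14 and 8.93 CPM with Cre, and 8.02, 7.66 and 9.62 CPM with TMPyP4. The +Cre libraries were above the +GFP libraries and the TMPyP4 libraries overlapped them. Neither difference was called (0.18 ± 0.12, adjusted p = 0.22, and 0.17 ± 0.12, adjusted p = 0.29).

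RNase H2, which removes the RNA of hybrids and single ribonucleotides from DNA, is made of the catalytic subunit Rnaseh2a and the accessory subunits Rnaseh2b and Rnaseh2c. Rnaseh2a (chromosome 8, 84956610 to 84969598, GRCm38) had 49.3, 44.9 and 51.7 CPM in Rtel1f/f +GFP cells and 42.0, 40.4 and 45.7 CPM in +Cre cells. In TMPyP4-treated cells it had 48.9, 50.8 and 51.5 CPM. The +Cre libraries overlapped the +GFP libraries and were all below the TMPyP4 libraries. Rnaseh2a was not called with Cre (-0.19 ± 0.06, adjusted p = 0.016) or with TMPyP4 (0.05 ± 0.06, adjusted p = 0.53). Directly between +Cre and TMPyP4 cells the difference was -0.24 ± 0.06, lower in +Cre cells (adjusted p = 0.0085), the only gene of the 9 called there, where 15.2% of all genes were called. That call was lost when any 1 of the 6 libraries compared was left out (adjusted p between 0.015 and 0.067) and after GC correction (-0.17, adjusted p = 0.085).

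In RTEL1 CA cells the level of Rnaseh2a was 49.5, 47.3 and 50.9 CPM before and 43.1, 45.6 and 43.2 CPM after Cre. The +Cre libraries were all below the +GFP libraries, and the difference of -0.16 ± 0.06 was not called (adjusted p = 0.20). Pairing same-numbered RTEL1 CA libraries changed no call among the 9 genes. The effect of Cre on Rnaseh2a differed between Rtel1f/f and RTEL1 CA cells by -0.02 (95% interval -0.21 to 0.16, adjusted p = 0.86). Trf1f/f +GFP libraries had 36.6, 39.0 and 36.3 CPM of Rnaseh2a and Trf1f/f +Cre libraries 34.9, 35.9 and 36.4 CPM, which overlapped.

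Rnaseh2c, on chromosome 19 at 5601873 to 5602959 (GRCm38), varied between libraries of a group more than 99.5% of the genes whose mean level was 1 CPM or higher. It had 30.3, 26.1 and 29.6 CPM in Rtel1f/f +GFP cells, 27.8, 5.61 and 14.2 CPM with Cre and 25.8, 9.39 and 13.2 CPM with TMPyP4, in the order of replicates 1, 2 and 3. RTEL1 CA +GFP libraries had 27.9, 7.43 and 9.36 CPM and RTEL1 CA +Cre libraries 27.2, 6.36 and 9.67 CPM. Trf1f/f +GFP libraries had 16.4, 6.94 and 5.14 CPM and Trf1f/f +Cre libraries 16.8, 9.17 and 13.5 CPM. Replicate 1 was the highest in all 7 groups, and within the Rtel1f/f line the replicate 1 libraries lay between 25.8 and 30.3 CPM whatever the treatment. The library order of Rnaseh2c was that of the GC balance in 5 of 7 groups and the reverse in none. Its transcripts have a GC content of 58.1%, higher than in 89.3% of tested genes.

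No difference in Rnaseh2c was called in any of the 10 comparisons of the reported fit. The log2 fold change was -0.85 ± 0.64 with Cre (95% interval -2.21 to 0.51, adjusted p = 0.27) and -0.84 ± 0.64 with TMPyP4 (-2.20 to 0.53, adjusted p = 0.31). Both intervals hold no change as well as a large fall. All 3 TMPyP4 libraries were below the +GFP libraries, and the +Cre libraries overlapped them. With the replicate 1 libraries alone it was -0.06 and -0.16. After GC correction the 3 +Cre libraries had 25.4, 8.21 and 13.9 CPM, and the highest was 3.10 times the lowest, compared with 4.95 times before the correction. In TPM, Rnaseh2c was at 0.53 to 2.55 times the level of Rnaseh2a over the 21 libraries, and at 1.73 to 2.55 times in the 7 replicate 1 libraries.

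Rnaseh2b (chromosome 14, 62332068 to 62372996, GRCm38) went the other way within groups. It had 33.2, 36.2 and 35.0 CPM in Rtel1f/f +GFP cells, 37.2, 48.3 and 41.5 CPM with Cre and 37.2, 45.2 and 41.5 CPM with TMPyP4. Replicate 1 was the lowest in 6 of 7 groups, and the library order was the reverse of that of the GC balance in 5 of 7. All 6 treated or deleted libraries were above the 3 control libraries, and neither difference was called (0.28 ± 0.12, adjusted p = 0.058, and 0.25 ± 0.12, adjusted p = 0.11). After GC correction the differences were 0.12 and 0.10. In TPM, Rnaseh2b was at 0.98 to 1.73 times the level of Rnaseh2a.

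**Figure D4:**
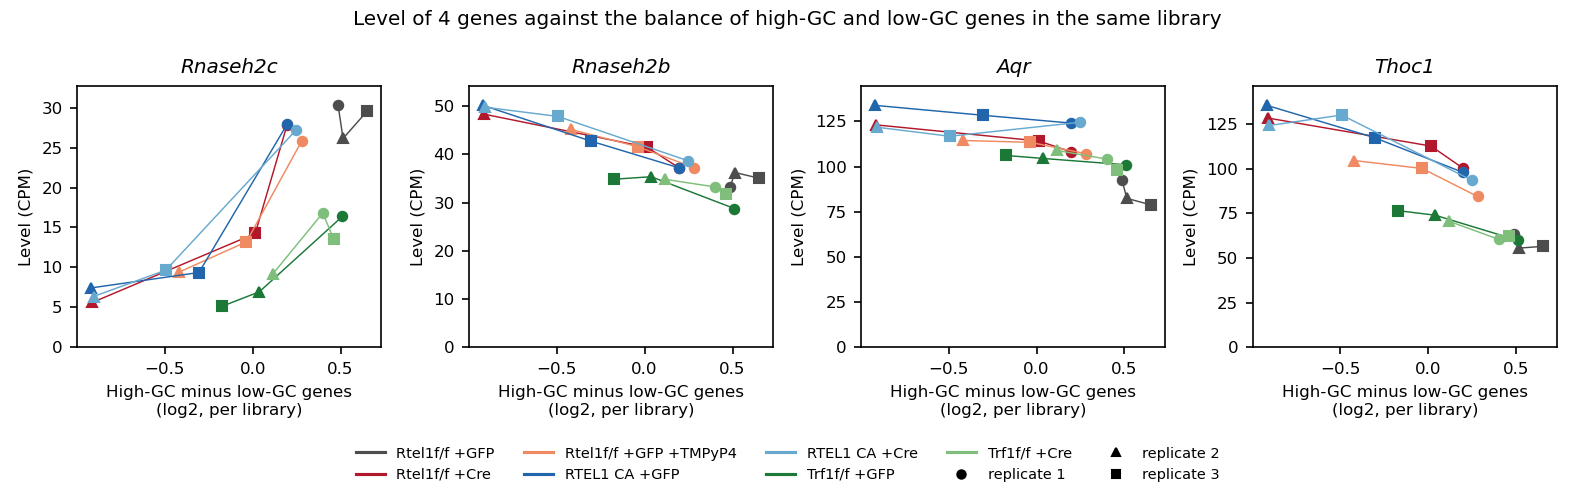
Level in CPM (vertical axes from 0) of Rnaseh2c, Rnaseh2b, Aqr and Thoc1 against the GC balance of each library (horizontal axes, log2), with libraries of a group joined by a line and the replicate number as the symbol. Within most groups, Rnaseh2c is higher and the other 3 genes are lower in libraries with more high-GC transcripts, and the Rtel1f/f +GFP libraries lie at the right, between 0.49 and 0.65.

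Top3b encodes a type IA topoisomerase that relaxes the negatively supercoiled DNA in which R-loops form and also acts on RNA. It spans 16870722 to 16892986 on chromosome 16 (GRCm38). It had 32.3, 32.0 and 33.9 CPM in Rtel1f/f +GFP cells, 30.1, 30.8 and 28.3 CPM with Cre and 31.9, 34.1 and 30.2 CPM with TMPyP4. The +Cre libraries lay just below the +GFP libraries, without a call (-0.14 ± 0.06, adjusted p = 0.074), and the TMPyP4 libraries overlapped them (-0.03 ± 0.06, adjusted p = 0.72). Of 9 other topoisomerases and TOP3B partners, 3 rose and 0 fell with Cre (22.0% of all genes rose), and 3 rose and 0 fell with TMPyP4 (16.6% of all genes rose). They were Fmr1, whose RNA-binding protein joins the TOP3B complex (0.94 ± 0.12 and 0.78 ± 0.12), Top1, the main relaxing enzyme of transcribed DNA (0.82 ± 0.11 and 0.47 ± 0.11), and Top1mt, its mitochondrial counterpart (0.51 ± 0.12 and 0.53 ± 0.12). The median of the 9 was 0.10 with Cre and 0.21 with TMPyP4, against -0.03 and -0.01 for all genes. In RTEL1 CA +GFP against Rtel1f/f +GFP cells, 2 of the 9 were higher and 0 lower (44.7% of all genes called).

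Among 14 helicases with reported activity on R-loops or RNA-DNA hybrids, 6 rose and 0 fell with Cre in Rtel1f/f cells, where 22.0% of all genes rose, and 3 rose and 0 fell with TMPyP4, where 16.6% of all genes rose. Ddx21, a nucleolar RNA helicase, rose by 1.31 ± 0.12 with Cre and 0.73 ± 0.12 with TMPyP4, and Ddx1, an RNA helicase of several RNA-processing complexes, by 0.81 ± 0.09 and 0.69 ± 0.09. The third largest were Ddx5, a splicing and transcription cofactor, with Cre (0.42 ± 0.10) and Ddx19b, an export helicase, with TMPyP4 (0.26 ± 0.07). Undeleted RTEL1 CA +GFP cells had 7 of the 14 higher and 0 lower than the same Rtel1f/f +GFP libraries (44.7% of all genes called). Ddx21, Ddx1 and Ddx5 were higher there by 1.32 ± 0.12, 0.77 ± 0.09 and 0.47 ± 0.10. The part of the shared control and of the GC balance in the changes of these lists was not tested. Among 8 nucleases and ribonucleotide excision genes, 1 rose and 1 fell with Cre, where 43.0% of all genes were called, and 1 rose and 2 fell with TMPyP4, where 30.0% were called. Lig1, the DNA ligase that seals repaired nicks, fell by 0.64 ± 0.05 with Cre and fell by 0.40 ± 0.05 with TMPyP4, Xrn2, the exonuclease of transcription termination, rose by 0.51 ± 0.09 and 0.40 ± 0.09, and Fen1, the flap nuclease, fell by 0.29 ± 0.08 with TMPyP4. After Terf1 loss Samhd1, which degrades deoxynucleotides, rose by 0.58 ± 0.09. No other gene of these 2 lists was called after Cre in Trf1f/f or RTEL1 CA cells (3.42% and 1.09% of all genes called). Of 13 proliferation genes, 3 rose and 5 fell with Cre and 1 rose and 3 fell with TMPyP4, against the same 43.0% and 30.0% of all genes called. The largest changes with Cre were those of Rrm2 (1.19), Ccnb1 (0.64) and Mki67 (-0.59), and with TMPyP4 those of Mki67 (-0.62), Mcm5 (-0.44) and Ccnb1 (0.31). The mean log2 CPM of the 13 genes was between 8.21 and 8.25 in Rtel1f/f +GFP libraries, between 8.22 and 8.29 with Cre and between 8.10 and 8.13 with TMPyP4.

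RTEL1 CA +GFP cells, which express the mutant and were not deleted, differed from Rtel1f/f +GFP cells in 3 of the 9 genes, where 44.7% of all genes were called. Beside the rises of Aqr and Thoc1 given above, Poldip3 was lower, with 160.4, 154 and 169 CPM against 195, 185 and 194 CPM. The ranges did not overlap, and the difference was -0.25 ± 0.06 (adjusted p = 0.0029). Poldip3 was called in 7 of the 15 alternative fits of this comparison. The call was lost without Rtel1f/f +GFP replicate 1 or 3, without RTEL1 CA +GFP replicate 1 or 2 (adjusted p between 0.011 and 0.024), with only the groups compared (adjusted p = 0.019), after GC correction without or with the replicate block (-0.12, adjusted p = 0.043 and 0.030) and with the replicate 1 libraries (-0.26, adjusted p = 0.059). This comparison has the same 3 control libraries as those of Rtel1 loss and TMPyP4. After Cre, 0 of the 9 genes were called between RTEL1 CA and Rtel1f/f cells by edgeR or DESeq2, where edgeR called 4.30% of all genes. At an unadjusted p under 0.05 in edgeR 1 of the 9 passed, as did 2323 of all 13719 genes tested.

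The largest number of called differences lay between the 2 undeleted lines. Relative to Rtel1f/f +GFP cells, 6 of the 9 genes differed in Trf1f/f +GFP cells, where 54.9% of all genes were called. Rnaseh1 was higher, at 12.2, 12.3 and 12.2 CPM (0.71 ± 0.12, adjusted p = 6.9e-05), and so was Top3b, at 52.3, 48.6 and 52.0 CPM (0.64 ± 0.06, adjusted p = 7.1e-08). Poldip3 was lower, at 123, 124 and 127 CPM (-0.62 ± 0.06, adjusted p = 1.1e-07), as was Ddx39b, at 185, 196 and 187 CPM (-0.51 ± 0.07, adjusted p = 6.3e-06). The libraries of both groups did not overlap for 7 of the 9 genes, these 4 among them, and for 72.6% of all genes tested. Rnaseh2c was another of the 7, lower in Trf1f/f +GFP cells and not called (-1.59 ± 0.66, 95% interval -2.99 to -0.20, adjusted p = 0.043). It was called in 2 of the 14 alternative fits of this comparison. Rnaseh2a was lower by -0.38 ± 0.06 (adjusted p = 3.0e-05) and Aqr higher by 0.30 ± 0.07 (adjusted p = 7.2e-04), the latter not called without Rtel1f/f +GFP replicate 2 or 3 (adjusted p = 0.016 and 0.026).

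The levels of the 9 genes relative to one another could be compared only per length, in TPM. In Rtel1f/f +GFP cells Ddx39b was the highest at 341 ± 2.79 TPM (SD, n = 3), followed by Poldip3 at 124 ± 1.15 and Rnaseh2c at 119 ± 6.62, which overlapped. Rnaseh2b (53.9 ± 3.60) and Rnaseh2a (51.6 ± 2.19) overlapped, as did Aqr (35.8 ± 3.12) and Thoc1 (31.7 ± 2.15). Top3b (23.4 ± 0.433) and Rnaseh1 (11.6 ± 0.462) stood apart at the low end. Ddx39b was first in all 7 groups and the next gene did not reach its range. In Rtel1f/f +Cre cells Thoc1 was at 52.3 ± 8.58 TPM and Aqr at 41.4 ± 4.51, and the genes from the third to the seventh place, Rnaseh2b, Rnaseh2c, Thoc1, Aqr and Rnaseh2a, each overlapped the next. In Trf1f/f +Cre cells Top3b, at 38.5 ± 1.94 TPM, was above Thoc1, at 33.7 ± 2.36 TPM, in all 3 libraries.

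**Figure D5:**
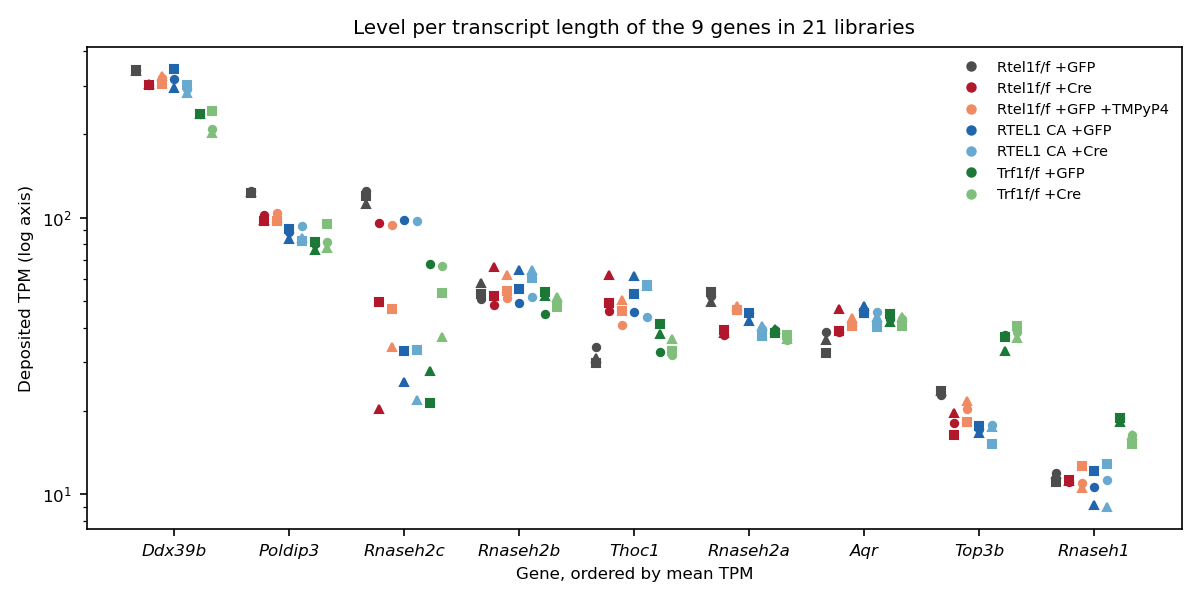
Deposited TPM (logarithmic vertical axis) of the 9 genes in the 21 libraries, ordered by mean and coloured by group. Ddx39b lies above the others in every library, Rnaseh1 below them, and Rnaseh2c spreads from 20.2 to 125 TPM.

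Over the 21 libraries, the tested genes whose log2 CPM followed that of Aqr most closely included Usp15 (Pearson r = 0.98), a deubiquitinase, and Dnaja2 (0.96), a co-chaperone. For Thoc1 they were Snrpd3 (0.99), a core protein of splicing particles, Gnl3 (0.99), a nucleolar GTPase, and Memo1 (0.99). For Rnaseh2c, chosen after its values were seen, they were Bahcc1, Ptprf and Cdt1 (0.98 each). The points of these correlations share libraries, their depth and their GC balance. The transcripts of the 3 genes nearest to Rnaseh2c have a GC content of 58.1% to 60.3%, and those of Usp15 and Dnaja2 one of 42.3% and 42.6%.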

How the data were processed

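The deposited values were gene-level expected counts that the authors had made with cutadapt 1.9.1, STAR 2.5.2a and RSEM 1.3.0 on mm10 RefSeq genes, with strand taken into account, and that were whole numbers as deposited. The deposited TPM were scaled by the authors to transcript length and library. Per the labels the authors tested with DESeq2 1.28.0. Here counts were tested with edgeR 4.0.16 (R 4.3.3, limma 3.58.1; TMM normalization, filter by expression, robust quasi-likelihood fit of all 7 groups, 14 residual degrees of freedom), and the threshold for a call was 0.01 after Benjamini-Hochberg adjustment over 13719 genes. The test was tried on simulated counts drawn independently for each library. These held no shared deviation of same-numbered libraries and no difference in GC balance, so that the simulation does not speak to either. Log2 CPM for correlations used a prior count of 2.

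Groups came from the labels. The 9 genes and the lists were chosen with earlier results of these data known. The text names all 9 genes, up to 3 called genes of each list with the largest change per main comparison, and for each gene called there the 3 genes most correlated with it, of which 1 is not reported here; those of Rnaseh2c were added after seeing the data, as were the GC correction (loess, span 0.3) and the replicate 1 comparison. Same-numbered libraries deviated together in RTEL1 CA +GFP and +Cre (r = 0.86, 0.84 and 0.42) and in Rtel1f/f +Cre and TMPyP4 (r = 0.72, 0.76 and 0.41). In 2 other pairs of groups compared they did so for replicates 1 and 2 and not for replicate 3. These were Rtel1f/f +Cre and RTEL1 CA +Cre (r = 0.74, 0.80 and 0.05) and Trf1f/f +GFP and +Cre (r = 0.55, 0.36 and -0.10). In the pairs compared that hold Rtel1f/f +GFP, r was at most 0.13. The labels give no shared source for a number. Alternatives were DESeq2 1.42.0, its size factors, other filters, only the groups compared, a replicate block and leaving out each library. GC content came from GENCODE transcripts, the longest protein-coding one of each gene where there was one, for 99.3% of the tested genes.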

Additional observations from a re-analysis of the deposited data

Results flagged for a closer look

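The effect of Cre differed between lines for 2 genes, tested as an interaction in edgeR. For Aqr it was larger in Rtel1f/f than in RTEL1 CA cells by 0.54 ± 0.09 and larger than in Trf1f/f cells by 0.45 ± 0.09 on the log2 scale. For Thoc1 these differences were 0.97 ± 0.20 and 1.08 ± 0.20. Aqr and Thoc1 were called in both interactions in the reported fit and in all 20 alternative fits of each. The range was 0.31 to 0.61 for Aqr and 0.77 to 1.18 for Thoc1. These were 2 of the 9 genes in each interaction of the reported fit. Of all genes tested, 25.1% were called in that with RTEL1 CA cells and 30.2% in that with Trf1f/f cells. RTEL1 CA +GFP libraries were above Rtel1f/f +GFP libraries for both genes, as given in the report, and the GC balance of the Rtel1f/f +GFP libraries was above that of all other libraries of the line; the part of these in the interactions was not tested beyond the GC correction, under which they were 0.43 and 0.31 for Aqr and 0.77 and 0.81 for Thoc1.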

How the results depend on the processing

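No called value of the 9 genes changed sign under any alternative, in any of the 10 comparisons. With Cre in Rtel1f/f cells, 1 gene instead of 2 was called with the replicate 1 libraries alone, and with TMPyP4 0 instead of 2. These fits leave 1 library in the treated group, which was assumed to vary like the others, and test fewer samples. The single call between Rtel1f/f +Cre and TMPyP4 cells (Rnaseh2a) went to 0 with DESeq2 size factors, with no filter and with only the groups compared. It also went to 0 after GC correction and in each of the 6 fits without 1 library (lowest 0, highest 0). Of the 14 alternative fits of that comparison, Rnaseh2a was called in 3 and Thoc1 in 1. Between RTEL1 CA +GFP and Rtel1f/f +GFP cells 5 genes instead of 3 were called with the replicate block (Rnaseh2b and Rnaseh2c added) and 5 with the threshold set to 0.05. The difference in the effect of Cre between Rtel1f/f and Trf1f/f cells had 4 calls instead of 2 with GC correction and replicate block together (Rnaseh1 and Ddx39b added). With both together Ddx39b was also called with Cre, with TMPyP4, in the difference between Rtel1f/f and RTEL1 CA cells (0.40, adjusted p = 0.0010) and between RTEL1 CA +GFP and Rtel1f/f +GFP cells (0.37, adjusted p = 5.7e-05), and in the last also with GC correction alone (0.38, adjusted p = 8.9e-04). The causes were not tested. These counts are of the 9 genes alone, and the share of all genes called in the same fits is not given here. The numbers did not pair the Rtel1f/f +GFP libraries with others, and with the block Rnaseh2b was also called with Cre (0.28, adjusted p = 0.0034) and with TMPyP4 (0.25, adjusted p = 0.0096); where the numbers paired libraries, in RTEL1 CA cells and between +Cre and TMPyP4, the block changed no call. Rnaseh2c, with 207 to 1478 counts per library, had the widest intervals.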
